A study of Mus musculus with 7 samples.

Results

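Adrenergic receptors bind noradrenaline and adrenaline, and 8 receptor genes of this family in the mouse (Adra1a, Adra1b, Adra1d, Adra2a, Adra2b, Adra2c, Adrb1 and Adrb3) were looked up by exact symbol among the probe sets that carry a single gene symbol. Of the 8, 2 were matched, Adra1b and Adra2c, among 22180 genes in all. The other 6 were not analysed here. Each matched gene had 1 probe set, 17261982 for Adra1b (Entrez 11548) and 17436823 for Adra2c (Entrez 11553).

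Noradrenaline reaches the medial prefrontal cortex (mPFC) in axons of the locus coeruleus, a brainstem nucleus that responds to salient and noxious events. Alpha1 receptors couple to Gq proteins and phospholipase C, alpha2 receptors couple to Gi and Go proteins that lower cyclic AMP, and beta receptors couple to Gs, which raises it. Alpha2 receptors also sit on noradrenergic terminals, where they hold back release, and cocaine blocks the transporter that clears noradrenaline as well as those of dopamine and serotonin.

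The RNA came from GFP-tagged ribosomes, precipitated with an anti-GFP antibody from mPFC and measured on 7 one-colour Affymetrix arrays. All mice were of a ribosome TRAP line crossed to an ArcCre transgenic line, and all received tamoxifen, so cells that drove Cre from the Arc promoter during the exposure carried the tag. The cocaine-activated group (15 mg/kg for 2 days) had 4 arrays, numbered 4 to 7 in their titles, and the shock-activated group (20 shocks of 2 s at 0.5 mA for 2 days) had 3, numbered 4 to 6. Age, sex, strain background and the number of mice per array are not given in the labels, so the p-values cover the variation from array to array alone, part of which may be technical. Because Arc drives the labelling, the tagged cells of each group are a mixture of those that were active. Fewer cells of a type cannot be told apart from less RNA per cell. Whether the precipitates also held RNA from untagged cells was not tested. RNA from before the precipitation and from unexposed mice was not analysed here.

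Of the markers of cortical excitatory neurons, 11 of 11 measured genes lay above a background level of 5.46, as did 61.9% of all genes, 10 of 10 astrocyte, 10 of 10 mural cell, 9 of 9 oligodendrocyte and 7 of 7 striatal neuron markers. Above that level also lay 9 of 10 brain endothelium, 8 of 9 inhibitory neuron, 8 of 9 microglia and 2 of 3 noradrenergic neuron markers. That level is the 95th percentile of the mean values of 1390 olfactory and vomeronasal receptor genes. The vesicular glutamate transporter gene Slc17a7 averaged 11.73 ± 0.04 (SD, n = 4) on the cocaine arrays and 11.65 ± 0.06 (SD, n = 3) on the shock arrays. Cocaine array 6 lay farthest from the other arrays, at a mean Euclidean distance of 37.2 over all genes against 27.5 to 29.6 for the other 6. Arc itself averaged 9.51 ± 0.55 (SD, n = 4) and 8.83 ± 0.91 (SD, n = 3).

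The comparison asks whether ribosome-bound receptor RNA differed between cells labelled by cocaine and cells labelled by shock. Both receptors had a slightly lower mean in the cocaine group, by 0.10 for Adra1b and 0.12 for Adra2c on the log2 scale, and neither difference passed a test. Over all 22180 genes limma called 0 at an adjusted p under 0.05 (0%), and 688 (3.10%) at an unadjusted p under 0.05. A lower mean in the cocaine group was found for 49.1% of all genes, so 2 of 2 receptors with a lower mean is a description of a pair of genes. The median of the receptor differences was -0.11, where the median over all genes was 0.0016. Leaving out shock array 4 gave -0.17, and leaving out shock array 6 gave -0.070.

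Adra1b encodes the alpha1B receptor, a Gq-coupled form found in cortex and thalamus. Its log2 values on cocaine arrays 4, 5, 6 and 7 were 5.80, 5.66, 5.70 and 5.79. On shock arrays 4, 5 and 6 they were 5.65, 5.92 and 5.95. The groups overlapped, because shock array 4 was the lowest of all 7 while shock arrays 5 and 6 were the highest. All 7 values lay close to background, with a mean 0.32 above that level, and the mean lay under the level set at the 99th percentile (6.32).

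The Adra1b means were 5.74 ± 0.07 (SD, n = 4) for cocaine and 5.84 ± 0.16 (SD, n = 3) for shock. The difference was -0.10 (SE 0.08), a ratio of 0.932 with a 95% interval of 0.815 to 1.06. The adjusted p of limma was 0.938 (unadjusted 0.25), and an exact two-sided permutation test over the 35 splits of the arrays gave p = 0.371 (the smallest these splits allow is 0.0286). The size of this difference depended on each shock array. Without shock array 4 it was -0.20 (SE 0.05) with an unadjusted limma p of 0.0121 and an adjusted p of 0.98. Leaving out shock array 5 gave -0.060, leaving out shock array 6 gave -0.050, and leaving out cocaine array 6 gave -0.090.

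Adra2c encodes the alpha2C receptor, a Gi-coupled form prominent in striatum and present in cortex, which acts both on terminals and on receiving cells. Its log2 values on cocaine arrays 4, 5, 6 and 7 were 6.75, 6.61, 6.52 and 6.71, and on shock arrays 4, 5 and 6 they were 6.71, 6.76 and 6.82. The shock arrays lay at the upper end, but cocaine array 4 was above shock array 4, and cocaine array 7 had the same deposited value as shock array 4. The mean of Adra2c was 1.24 above background and stayed above the level at the 99th percentile.

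**Figure D1:**
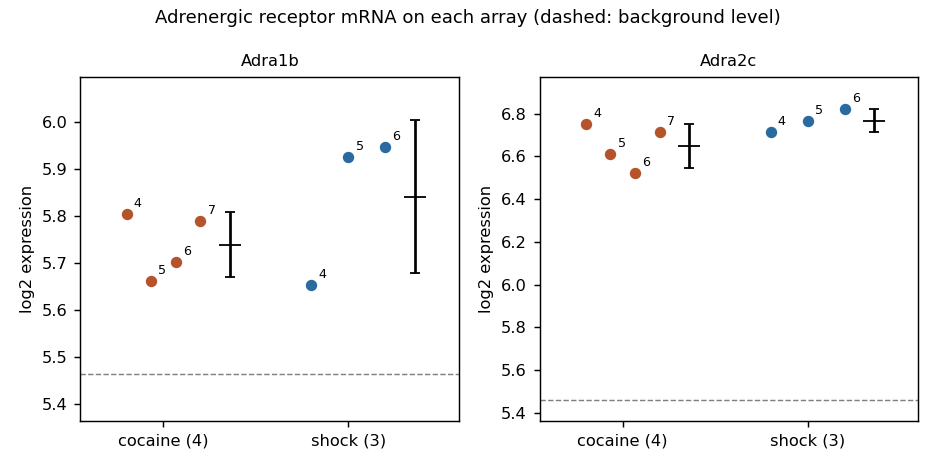
Log2 expression of Adra1b (left) and Adra2c (right) on the 4 cocaine and 3 shock arrays, with one point per array labelled by its title number, and bars at the group mean ± SD. The dashed line is the background level of 5.46, and in both panels the groups overlap because of shock array 4.

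The Adra2c means were 6.65 ± 0.10 (SD, n = 4) for cocaine and 6.77 ± 0.05 (SD, n = 3) for shock. The difference was -0.12 (SE 0.06), a ratio of 0.922 with a 95% interval of 0.831 to 1.02. The adjusted p of limma was 0.938 (unadjusted 0.109), and the exact two-sided permutation test gave p = 0.2. Adjusted over both receptors, the exact permutation p was 0.371 for each. Cocaine array 6, which stood apart over all genes, had the lowest Adra2c value, and without it the difference was -0.074. A p above the threshold does not show that the groups were alike, and the intervals still hold a ratio of 0.815 for Adra1b and of 0.831 for Adra2c at their lower ends.

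**Figure D2:**
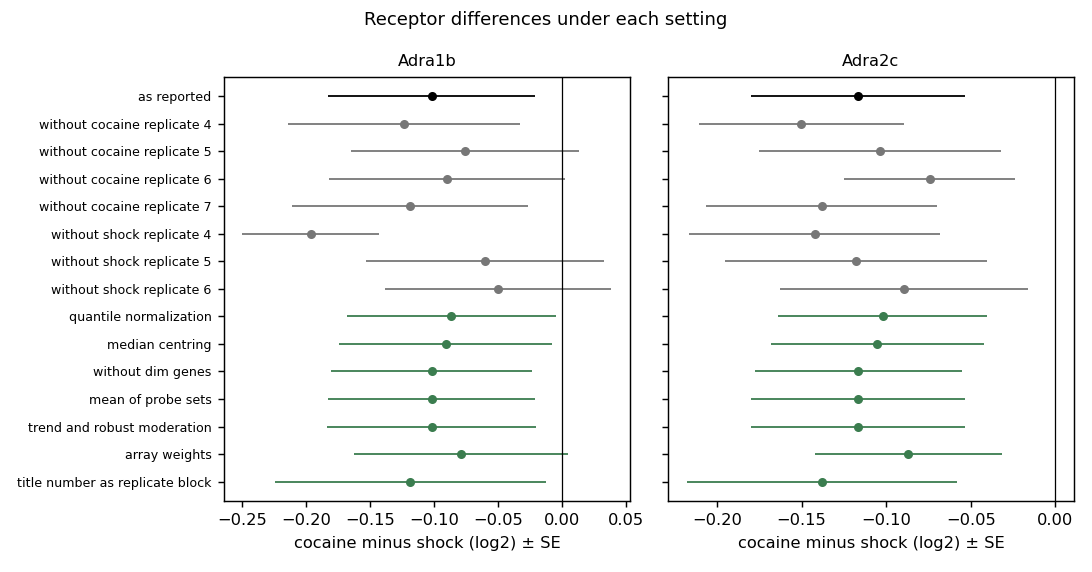
Difference of Adra1b and Adra2c (cocaine minus shock, log2, ± SE) as reported (black), with each array left out in turn (grey) and under the other settings (green). All values lie below 0, though some of the other settings cannot change the difference. Adra1b runs from -0.20 without shock array 4 to -0.050 without shock array 6.

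Other genes with the same profile were sought over the 7 arrays among 12643 named genes above background, by Pearson correlation. This is a description, since all profiles come from the same 7 arrays and share whatever differs between them. The nearest to Adra1b were Cmss1 (r = 0.933), the kinase gene Stk25 (r = 0.932) and Rab3a (r = 0.931), which encodes a synaptic vesicle GTPase. The nearest to Adra2c were Cnppd1 (r = 0.978), Tbc1d22b (r = 0.978) and Fam214b (r = 0.977). An r above 0.9 was reached by 6 genes for Adra1b and by 43 for Adra2c, of the 12643 searched. The number that would reach it by chance over 7 arrays was not computed, so these counts do not show shared regulation. Cnppd1 and Tbc1d22b, like Adra2c, had the same value on cocaine array 7 and shock array 4. How far such ties set r was not tested. The 6 nearest genes differed between the groups by -0.091 to -0.022, and none passed limma (adjusted p of 0.938 or above). They were picked for a high r with receptors that had a lower cocaine mean, which favours a lower mean in these genes too.

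Markers of other cell types are given beside the receptors, and their part in the receptor values was not tested. None of these markers passed limma's adjusted threshold, and in the astrocyte and mural lists 0 of 10 had an unadjusted p under 0.05. Over all genes 49.1% had a lower cocaine mean. At an unadjusted limma p under 0.05, 1.57% of all genes were lower and 1.53% were higher in the cocaine group. Brain endothelium markers had a lower cocaine mean in 10 of 10 genes (4 at an unadjusted p under 0.05), with a mean level of 6.28 to 6.61 on the cocaine arrays and 6.70 to 6.79 on the shock arrays. Mural cell and smooth muscle markers had a lower mean in 10 of 10, at 7.08 to 7.50 against 7.32 to 7.97. Their median difference of -0.27 became -0.12 when shock array 6 was left out and -0.45 when shock array 5 was. Astrocyte markers had a lower mean in 10 of 10, at 8.55 to 8.84 against 8.72 to 8.87. Striatal neuron markers had a higher mean in 7 of 7 measured genes (3 at an unadjusted p under 0.05), at 9.22 to 9.38 against 9.06 to 9.16. The cocaine mean was lower for 7 of 9 inhibitory neuron, 3 of 9 oligodendrocyte and 5 of 9 microglia markers, and for 2 of 3 noradrenergic neuron markers (Dbh and Slc6a2, but not Th). None of the lists was tested as a set.

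Among defining genes of those lists, the endothelial tight junction gene Cldn5 differed by -0.29, the smooth muscle actin gene Acta2 by -0.69, the astrocyte gap junction gene Gja1 by -0.23, the GABA-synthesis gene Gad1 by -0.035 and the dopamine receptor gene Drd1 by 0.33 (limma adjusted p of 0.938 or above for each). Acta2 stood at 8.83 on shock array 6, against 6.62 to 7.32 on the other 6 arrays. The same shock array 6 had the highest value of both Adra1b and Adra2c. Acta2 was higher on shock array 4 (7.15) than on shock array 5 (6.94), while both receptors were lower on shock array 4. A link between Acta2 and the receptors was not tested.

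The signalling genes around the receptors were read from 8 lists with 62 genes, of which 56 were measured and 49 lay above background. Their differences were small: 29 had a higher and 27 a lower mean in the cocaine group, with a median of 0.0027 and a range of -0.24 to 0.15. None passed limma's adjusted threshold (adjusted p of 0.938 or above). Those past an unadjusted p of 0.05 numbered 3 of 56 (Adcy4, Gnai2 and Maoa), and all 3 were lower in the cocaine group. At that p 1.57% of all genes were lower and 1.53% were higher. The groups did not overlap for 2 of them, Adcy4 and Gnai2, where 2.37% of all genes had groups that did not overlap and 1.11% had every cocaine array below every shock array. The count of 3 became 1 (Adcy4) when either cocaine array 7 or shock array 4 was left out.

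**Figure D3:**
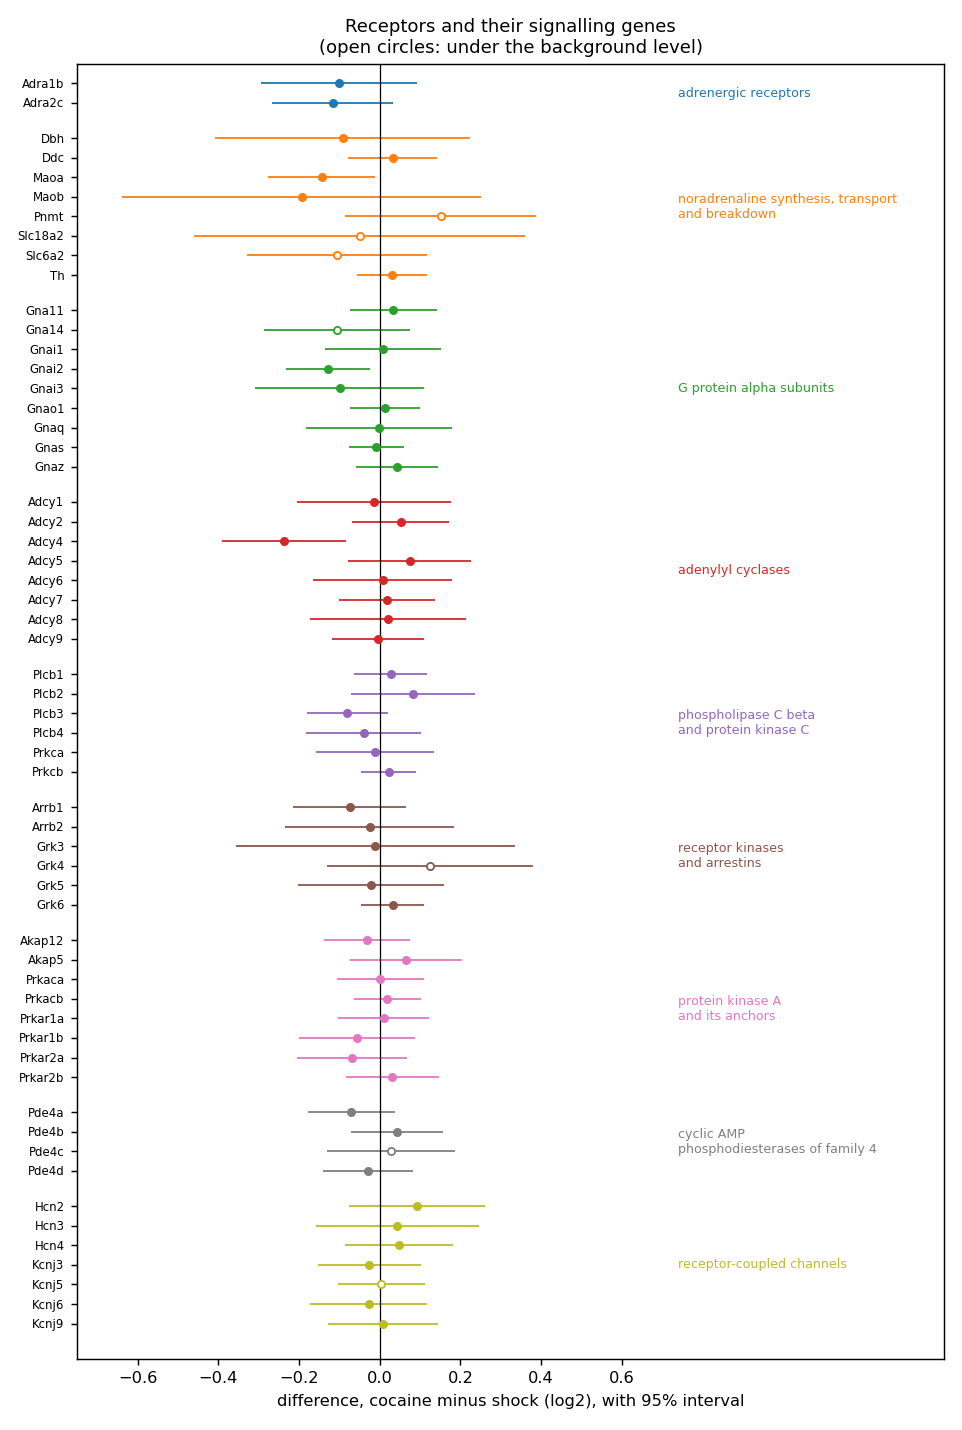
Difference (cocaine minus shock, log2) with its 95% interval for the 2 receptors and the 56 measured signalling genes, grouped and coloured by role. The intervals of 3 genes exclude 0 (Maoa, Gnai2 and Adcy4), and open circles mark genes whose mean lies under the background level.

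Supply and removal of noradrenaline came first in this order. Th, Ddc and Dbh encode the enzymes that make noradrenaline, Pnmt the one that turns it into adrenaline, and Slc18a2 and Slc6a2 the vesicular and plasma membrane transporters. Th was 5.81 ± 0.01 (SD, n = 4) on the cocaine arrays and 5.78 ± 0.06 (SD, n = 3) on the shock arrays. Its deposited value was the same on 5 of 7 arrays, so these SDs say little about the spread between arrays. Dbh, the enzyme that defines noradrenergic cells, had the same deposited value of 5.70 on all 3 shock arrays and ran from 5.38 to 5.93 on the cocaine arrays. Slc6a2 likewise had 5.08 on all 3 shock arrays, and it lay under background with Slc18a2 and Pnmt. Dbh lay close to background, at a mean of 5.65 over all arrays, and was under it on cocaine arrays 4 (5.38) and 6 (5.435). The means of Th (5.79) and Ddc (6.10) lay under the level set at the 99th percentile (6.32). Pnmt differed by 0.15 (SE 0.10), resting in part on cocaine array 6 at 5.19, and was 0.064 without it.

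The noradrenaline-degrading enzyme gene Maoa, monoamine oxidase A, had 7.63, 7.69, 7.64 and 7.53 on cocaine arrays 4, 5, 6 and 7, and 7.82, 7.68 and 7.80 on shock arrays 4, 5 and 6. Shock array 5 lay within the cocaine range, and the other shock arrays lay above it. The difference was -0.14 (SE 0.06), with an unadjusted limma p of 0.0381 and an adjusted p of 0.938. Over the arrays left out in turn it ran from -0.19 to -0.11. Maob, the related oxidase that astrocytes express strongly, differed by -0.19 (SE 0.19).

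Among G protein alpha subunits 4 of 9 had a higher and 5 a lower mean in the cocaine group. Gnai2, an inhibitory alpha subunit through which alpha2 receptors signal and which is also abundant outside neurons, had 9.94, 9.94, 9.85 and 9.87 on cocaine arrays 4, 5, 6 and 7. It had 10.07, 9.97 and 10.05 on shock arrays 4, 5 and 6, so the groups did not overlap, with shock array 5 the closest to the cocaine arrays. The difference was -0.13 (SE 0.04), with an unadjusted limma p of 0.022 and an adjusted p of 0.938. Gna14, a Gq family member under background, differed by -0.11 (SE 0.08), and by -0.020 without shock array 6. The main Gq genes Gnaq and Gna11 differed by -0.0016 and 0.034, and Gnao1, the Go subunit of neurons, by 0.013. Gnas, the stimulatory subunit of the beta receptors, had the same deposited value on 6 of 7 arrays and differed by -0.0087.

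Adenylyl cyclases make cyclic AMP, and 5 of 8 had a higher mean in the cocaine group. Adcy4, a cyclase known from vascular endothelium, had the smallest p of the 56 genes. Its values were 5.43, 5.62, 5.47 and 5.62 on cocaine arrays 4, 5, 6 and 7, and 5.76, 5.71 and 5.84 on shock arrays 4, 5 and 6. Every shock array lay above every cocaine array, and the mean of all 7 was 5.64, close to background. The difference was -0.24 (SE 0.06), with an unadjusted limma p of 0.00834 and an adjusted p of 0.938. It stayed between -0.27 and -0.20 when each array was left out in turn.

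Adcy4, Gnai2 and Maoa had their lower mean in the group where endothelial markers were also lower. The endothelial score, the mean of the values centred per gene, was -0.098, -0.006, 0.012 and -0.32 on cocaine arrays 4, 5, 6 and 7, and 0.13, 0.099 and 0.19 on shock arrays 4, 5 and 6. The groups did not overlap for the endothelial score, as for Adcy4 and Gnai2 but not Maoa. They did not overlap for the microglia score either, at -0.038 to 0.003 on the cocaine arrays and 0.006 to 0.052 on the shock arrays. The striatal score was apart in the other direction, at 0.016 to 0.175 against -0.148 to -0.044. The part of these scores in Adcy4, Gnai2 and Maoa was not tested. Within the cocaine group the order of the arrays differed from gene to gene. Cocaine array 7, with the lowest endothelial score, had the lowest Maoa (7.53) but the highest Adcy4 (5.62) of that group. Cocaine array 6, with the highest endothelial score of that group, had its lowest Gnai2 (9.85). The groups overlapped for the other 7 cyclases. Adcy5, the main striatal cyclase, differed by 0.075 (SE 0.06), Adcy1 by -0.014 and Adcy8 by 0.021.

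**Figure D4:**
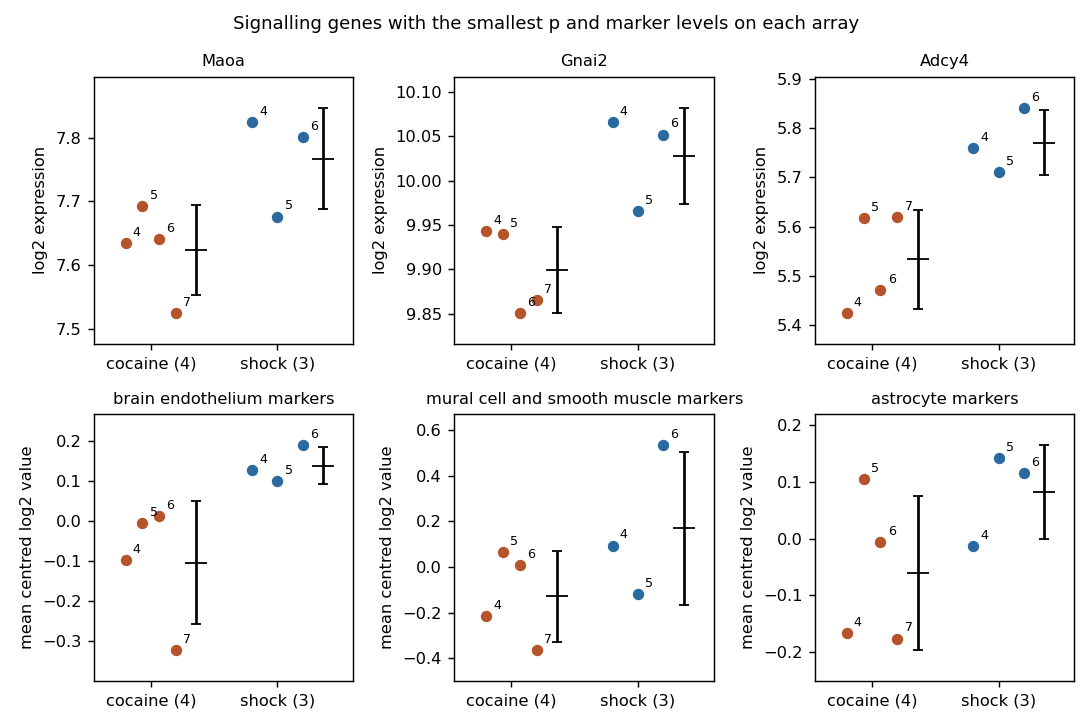
Log2 expression of Maoa, Gnai2 and Adcy4 (top) and the mean centred log2 value of endothelial, mural and astrocyte markers (bottom) on each array, labelled by title number, with group means ± SD. The cocaine and shock points are apart for Gnai2, Adcy4 and the endothelial markers, and they overlap in the other panels.

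In the Gq branch, the phospholipase C genes Plcb3 and Plcb2 differed by -0.080 (SE 0.04) and 0.083 (SE 0.06). Plcb1, the form of cortical neurons, differed by 0.027, and the protein kinase C genes Prkca and Prkcb by -0.012 and 0.022. The list had 3 higher and 3 lower of 6 measured genes. Receptor kinases and arrestins, which switch activated receptors off, had 2 higher and 4 lower of 6. Arrb1, the gene of beta-arrestin 1, differed by -0.075 (SE 0.06) and by -0.026 without cocaine array 6, since it had 9.96 there and one value, 10.15, on the other 3 cocaine arrays. Grk4, a kinase gene under background, differed by 0.12 (SE 0.11), and by 0.013 without shock array 5.

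In the cyclic AMP branch, protein kinase A subunits and anchors had 5 higher and 3 lower of 8. The regulatory subunit gene Prkar2a differed by -0.069 and the anchoring protein gene Akap5 by 0.066, the latter 0.0037 without shock array 4. Phosphodiesterases of family 4, which break cyclic AMP down, had 2 higher and 2 lower of 4, with Pde4a at -0.071 and Pde4b at 0.043, which was 0.00042 without shock array 6. Channels that alpha2 signalling acts on had 5 higher and 2 lower of 7. Hcn2 and Hcn4, cyclic AMP-gated channels, differed by 0.092 (0.038 without cocaine array 7) and 0.048, and the Gi-opened potassium channel genes Kcnj3, Kcnj6 and Kcnj9 by -0.026, -0.028 and 0.0080.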

How the data were processed

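The deposited table holds log2 expression values of 41345 probe sets on 7 arrays, from 1.12 to 13.44, and the log2 scale was read from these values. Transcriptome Analysis Console is the tool listed per the submitters' processing notes. How background, summarization and normalization were handled, and the genome build, is not stated in the sources used here, so positions were not used. Array medians were 5.44 to 5.47, which hides any change in total RNA, and for 55.9% of probe sets at least 2 arrays share the same value. Arrays have no read depth, and their number limits the precision. Platform annotation gave 1 symbol for 23521 probe sets, several for 1814 and none for 16010. The probe set with the highest mean was kept per gene.

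Cocaine minus shock was tested with limma 3.58.1 in R 4.3.3 (two-sided, no covariate, Benjamini-Hochberg over 22180 genes, threshold 0.05). The fit was also run on simulated normal values without ties, a check that does not cover the tied values of these arrays. Receptors were also given an exact permutation test. The members and lists were chosen with earlier results of these data known. Named were both receptors, the 3 genes nearest in profile to each, 2 genes of smallest p per signalling list, genes at p under 0.05, 7 cell markers and Arc. Other signalling genes were named after their values were seen, for their role. A planned comparison of receptor protein sequences was not run.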

Additional observations from a re-analysis of the deposited data

Results flagged for a closer look

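Among the 4 cocaine arrays, array 6 stood apart from the other 3 in its mean distance to the other arrays, where its gap to the nearest was 0.9746 of the group's range. Cocaine array 6 was also the lowest for Arrb1, with a gap of 1 of the range because the other 3 arrays had the same deposited value, and the highest for Pnmt, with a gap of 0.8455. These are 3 of 27 measures checked, where chance passes about 1 in 20 groups of untied normal values (1.35 of 27). Ties such as that of Arrb1 can force a large gap. The 16 named signalling genes among these measures were picked for a small p in these same data, so 1.35 is a rough guide. Neither Adra1b nor Adra2c was flagged by this check. The shock group, with 3 arrays, was not checked this way.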

How the results depend on the processing

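Adra1b and Adra2c kept a lower cocaine mean under all 14 alternatives, and neither passed the adjusted threshold in any. Not all of these could move the difference. Leaving out dim genes, averaging probe sets (each receptor has 1) and trend and robust moderation left it unchanged. The title-number block gave the same differences as leaving out cocaine array 7. Without 1 array Adra1b ran from -0.20 to -0.050 and Adra2c from -0.15 to -0.074. The number of receptors at an unadjusted p under 0.05 ran from 0 to 1, and the number of signalling genes from 1 to 4. The lists' medians were not tested, and all 8 changed sign under some alternative. Without 1 array they ran from -0.092 to 0.0016 for noradrenaline supply, -0.024 to 0.038 for kinases and arrestins, -0.014 to 0.0038 for family 4 phosphodiesterases and -0.0091 to 0.031 for channels. The phosphodiesterase median was 0.014 after quantile normalization, 0.011 after median centring and -0.028 without dim genes, and the channel median was 0.026 without dim genes, where fewer genes are tested and 449 passed at an unadjusted p under 0.05 against 688. At the 99th percentile of background 1 receptor, Adra2c, lay above it. Of 16 named signalling genes, 0 changed direction, and 12 moved by over 1.5 times without 1 array (all but Maoa, Gnai2, Adcy4 and Plcb3). These 16 were picked for a small p in these same data, which favours a steady direction. Medians of the cell marker lists without each array were added after seeing the data, and the mural one ran from -0.45 to -0.12. Array titles share the numbers 4, 5 and 6 between groups, but the labels state no pairing, so the numbers were not taken as pairs. Deviations of same-numbered arrays correlated at 0.128, 0.0639 and 0.158. Shock arrays 4 and 6 correlated best with the same-numbered cocaine array, and shock array 5 with cocaine array 7. Whether these numbers mark a shared batch is not known from the labels. With the title number as a replicate block, Adra1b differed by -0.12, Adra2c by -0.14, and the phosphodiesterase median was -0.013. In that limma fit 915 genes were at an unadjusted p under 0.05 against 688 without the block, among them 1 signalling gene (Adcy4).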
